A study of Canis lupus familiaris with 31 samples.

Results

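The 39 genes described here encode the enzymes that burn fatty acids in mitochondria and peroxisomes, the enzymes that activate and release fatty acids, the PPAR receptors and a few genes these receptors are known to switch on. They were matched by symbol, and the rule used no measured value, although the list was drawn up with earlier results of these data known. The table of counts from canine whole blood has a row for 38 of them among its 32704 rows, and HADHB, the partner subunit of HADHA, was not analysed here. Of these, 34 were tested, and 4 fell under edgeR's filter on low counts.

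The study asked how blood gene expression differs between Miniature Schnauzers with HTG, a raised level of triglycerides in fasting serum, and dogs of the same breed with normal levels. The 13 HTG cases (8 males, 5 females) had fasting triglycerides above the cut-off of the study, and the 18 controls (10 males, 8 females) had values within its laboratory's reference range. All were fasted, pet, middle-aged to old purebred dogs, the males castrated and nearly all of the females spayed, with no drug that alters lipids, and the cases had tested negative for the endocrine diseases that raise lipids secondarily. Blood was drawn into tubes that lyse the cells, and the libraries were made from total RNA after removal of ribosomal RNA, while the labels name polyA RNA as the molecule. Each dog gave 1 library, and the dogs are numbered within each group in falling order of triglycerides, so that case_01 had the highest value and control_18 the lowest.

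Long-chain fatty acids are activated to acyl-CoA by the ACSL enzymes, carried into mitochondria by the carnitine shuttle and shortened there by repeated rounds of dehydrogenation, hydration, a second dehydrogenation and thiolysis. The electrons of the first step pass through the electron transfer flavoproteins to the respiratory chain, and very long chains are shortened in peroxisomes. The PPAR receptors bind fatty acids, pair with RXRA on DNA and switch on many of these genes, and PDK4, CPT1A, PLIN2 and ANGPTL4 are widely used as readouts of PPAR activity in leukocytes.

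Counts on genes per dog ranged from 14524659 to 41533599, with a median of 20588919 in cases and 19679367 in controls. Control_03 had the lowest count. In the study's alignment statistics, case_01 and control_03 had the highest shares of mapped reads assigned to genes. The dogs also fell into 10 with high and 21 with low counts of small RNA rows, with 5 cases and 5 controls on the high side. Of the marker scores of 8 blood cell types, the platelet score was higher in cases by 0.67 on the log2 scale (permutation test, P = 0.00289, adjusted P = 0.0231), and the erythroid and neutrophil scores were higher by 0.73 (adjusted P = 0.231) and 0.36 (adjusted P = 0.173). The markers summed to 1849 to 6789 CPM (counts scaled to a common library size) in cases and 1182 to 6479 in controls for platelets, 954 to 18311 and 767 to 28645 for red cell precursors and reticulocytes, and 6114 to 10758 and 4136 to 17459 for neutrophils, while those of adipocytes did not exceed 1.20 in any dog. The hepatocyte markers summed to 1802 to 3835 CPM in cases and 1384 to 3491 in controls, nearly all of it from SERPINA1, which leukocytes also express, and among the others ALB did not exceed 0.52 CPM in any dog and TTR was at 0 in every dog. In whole blood, fewer cells of a type and less RNA per cell cannot be told apart. CPM is not divided by transcript length, so levels are compared between dogs for the same gene and not between genes.

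The range among dogs differed from gene to gene. In the 33 genes with counts in every dog, the highest dog exceeded the lowest by 1.33-fold for CPT2 at one end and 14.6-fold for ACSL1 at the other, with a median of 2.60-fold, and 21 genes spread by less than 3-fold. The SD of log2 CPM within groups had a median of 0.31 over the 34 genes and 0.36 over all genes tested. Control_09 held the highest level of 7 genes (ACADM, ETFB, ACSL4, PPARD, PLIN2, PDK4 and PNPLA2) and case_01 that of 4 (ACADVL, ACAD9, HADHA and ETFA).

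None of the 34 genes differed between cases and controls at the adjusted threshold (edgeR quasi-likelihood, Benjamini-Hochberg), which 5 of the 13918 genes tested passed, or 0.0359%. DESeq2 and limma-voom also called none of the 34. An unadjusted P under 0.05 was reached by 2 of the 34, ACAA2 and LIPE, both with higher means in cases, against 9.81% of all genes in either direction, 5.04% with higher and 4.76% with lower values in cases. That count was 6 with the neutrophil score as a covariate (12.6% of all genes), 5 with the erythroid score (9.41%) and 4 without case_01 and control_03 (13.1%). The lowest adjusted P among the members was 0.28 for ACAA2, and with the neutrophil score it was 0.165 for PNPLA2, the main triglyceride lipase of lipid droplets (edgeR). The fold changes of the members were spread evenly around 0, with 17 above and 17 below, where 45.5% of all genes lay above, and a median log2 fold change of -0.01, against -0.02 over all genes tested. The plot of fold changes by role shows this balance, with PDK4 farthest from 0 and with a wide error.

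**Figure D1:**
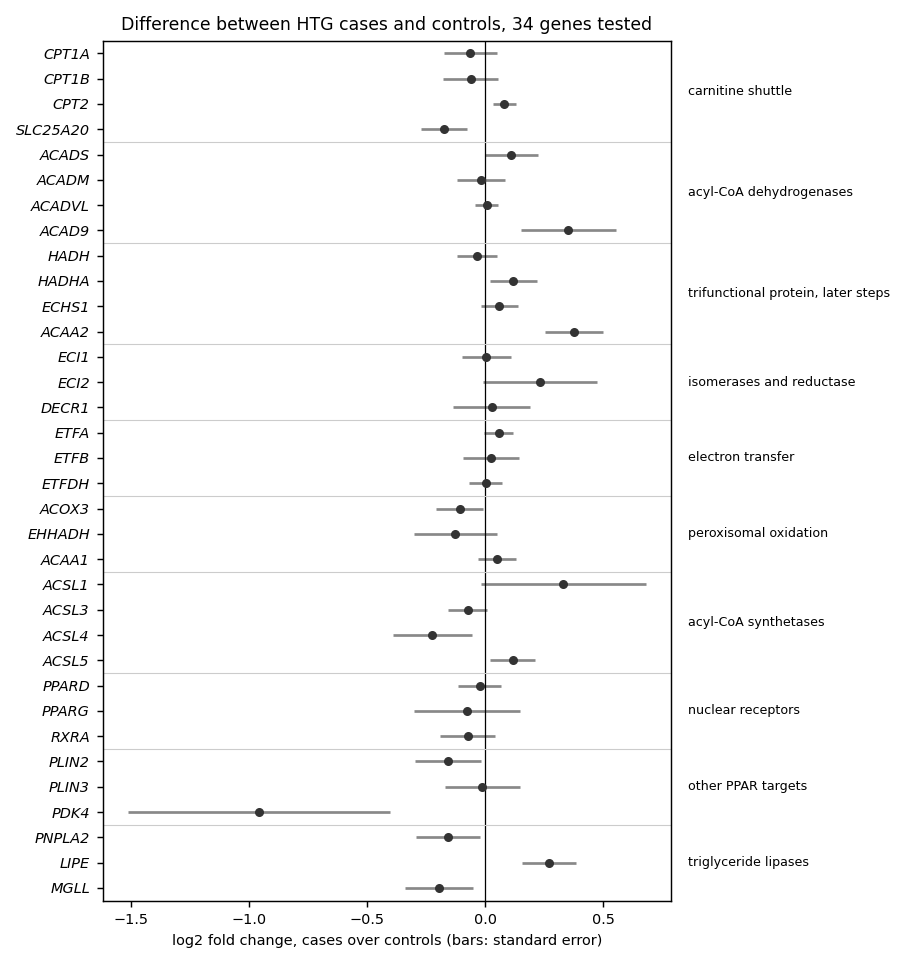
Log2 fold change of cases over controls for the 34 genes tested (horizontal axis), grouped by role, with bars for the standard error over 13 cases and 18 controls. Values lie between -0.96 for PDK4 and 0.38 for ACAA2, and none has an adjusted P of 0.05 or less.

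The carnitine shuttle varied little between the groups. CPT1A, the outer-membrane enzyme that sets the pace of entry, lay between 51.0 and 129.9 CPM in cases (median 92.2) and between 65.2 and 137.8 CPM in controls (median 91.4), with a log2 fold change of -0.06 (SE 0.11). The muscle-type form CPT1B lay between 7.13 and 18.9 CPM in cases (median 12.1) and 8.47 and 17.2 CPM in controls (median 13.1). For both the groups overlapped almost wholly. CPT2, which rebuilds acyl-CoA inside the mitochondrion, was the steadiest member, at 16.9 to 20.8 CPM in cases (median 19.1) and 15.8 to 20.9 CPM in controls (median 17.8), and 11 of 13 cases lay above the median control (log2 fold change 0.08, SE 0.05, edgeR P = 0.109). SLC25A20, the translocase between both enzymes, ran the other way with 2 of 13 cases above the median control, at 7.78 to 12.9 CPM in cases (median 10.2) and 7.46 to 15.2 CPM in controls (median 11.0), a log2 fold change of -0.18 (SE 0.10, edgeR P = 0.0822, adjusted P = 0.584). Neither difference passed the test.

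Among the acyl-CoA dehydrogenases, which open each round of oxidation, 4 of 5 were tested. ACADVL, for very long chains, was at 70.8 to 101.2 CPM in cases (median 79.5) and 70.7 to 92.2 CPM in controls (median 83.1), and ACADS, for short chains, at 5.70 to 12.5 CPM (median 9.24) and 5.76 to 11.7 CPM (median 8.00). ACADM, for medium chains, had a log2 fold change of -0.02 (SE 0.10). ACAD9, a related protein that also helps to assemble respiratory complex I, was at 15.3 to 69.6 CPM in cases (median 20.5) and 12.0 to 52.3 CPM in controls (median 17.1), a log2 fold change of 0.35 (SE 0.20, adjusted P = 0.601). Its highest values belonged to case_01 and control_03, and the next dog was at 30.1 CPM. ACADL, the long-chain enzyme, had 0 to 5 counts in cases and 0 to 46 in controls and was under the filter.

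The later steps of the spiral held the member with the smallest P between the groups. ACAA2, the mitochondrial thiolase that splits off acetyl-CoA, was at 22.7 to 43.9 CPM in cases (median 33.5) and 12.0 to 38.7 CPM in controls (median 25.7). The groups overlapped, with 11 of 13 cases above the median control and 3 above every control. Its log2 fold change was 0.38 (SE 0.12, edgeR P = 0.00476), and its adjusted P of 0.280 missed the threshold. The difference was 0.27 with the erythroid score as a covariate (SE 0.11, P = 0.0224), 0.27 with the neutrophil score (SE 0.12, P = 0.0335) and 0.33 with the platelet score (SE 0.15, P = 0.0323), all unadjusted edgeR P-values. Within the dogs with low and high small RNA counts it was 0.39 (SE 0.14) and 0.40 (SE 0.24). HADHA, which carries the hydratase and long-chain dehydrogenase activities of the trifunctional protein, was at 48.6 to 105.8 CPM in cases (median 54.5) and 42.9 to 85.5 CPM in controls (median 50.7), again with case_01 and control_03 far above the others. The fold changes of HADH, the dehydrogenase for shorter chains, and of the hydratase ECHS1 were -0.04 (SE 0.08) and 0.06 (SE 0.08) on the log2 scale.

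None of the enzymes for unsaturated chains or the electron carriers passed the test between the groups. The isomerases ECI1 and ECI2 and the reductase DECR1 had log2 fold changes of 0.01 (SE 0.10), 0.23 (SE 0.24) and 0.03 (SE 0.16). ETFA and ETFB, the subunits of the electron transfer flavoprotein, and ETFDH, which hands its electrons to ubiquinone, lay at 0.06 (SE 0.06), 0.02 (SE 0.12) and 0.00 (SE 0.07). ETFA was at 25.1 to 43.7 CPM in cases (median 29.1) and 24.8 to 34.1 CPM in controls (median 28.8), and ETFDH at 15.0 to 20.6 CPM (median 18.5) and 14.4 to 23.0 CPM (median 18.1). Of the peroxisomal genes, the oxidase ACOX3 had a log2 fold change of -0.11 (SE 0.10), the bifunctional enzyme EHHADH of -0.13 (SE 0.18) and the thiolase ACAA1 of 0.05 (SE 0.08). The smallest adjusted edgeR P among these 9 genes was 0.767.

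Among the acyl-CoA synthetases, ACSL1, which activates long-chain fatty acids and is a PPAR target in several tissues, ranged from 114 to 1018 CPM in cases (median 261) and from 90.6 to 1322 CPM in controls (median 167). The highest dog of each group, case_01 and control_03, stood apart, and 11 of 13 cases lay above the median control. The log2 fold change of 0.33 was smaller than its SE of 0.35. It was -0.13 (SE 0.09) with the erythroid score, -0.15 (SE 0.28) with the neutrophil score and -0.03 (SE 0.36) with the platelet score as a covariate. Without case_01 and control_03 it was 0.44 (SE 0.26), and with limma-voom 0.46 (SE 0.32). Within the dogs with low and high small RNA counts it was 0.60 (SE 0.36) and -0.20 (SE 0.66). ACSL3, a form found on lipid droplets, was at 14.8 to 28.3 CPM in cases (median 24.0) and 21.5 to 34.8 CPM in controls (median 24.8). ACSL4, which prefers arachidonic acid, and ACSL5 had log2 fold changes of -0.22 (SE 0.17) and 0.12 (SE 0.09).

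The receptors showed no difference that passed the test. PPARD, the receptor with the broadest tissue range, was at 20.8 to 31.4 CPM in cases (median 25.7) and 17.5 to 37.8 CPM in controls (median 26.6). PPARG, the receptor of adipocytes and macrophages, was low, at 1.01 to 4.90 CPM in cases (median 2.46) and 0.52 to 5.10 CPM in controls (median 2.88). RXRA, the shared partner, was at 260.4 to 448 CPM in cases (median 342) and 191 to 495 CPM in controls (median 349). The groups overlapped in each, and the log2 fold changes were -0.02 (SE 0.09), -0.08 (SE 0.23) and -0.07 (SE 0.12). PPARA, the main receptor of liver and heart and the one that fibrates bind, had 0 to 13 counts in cases and 0 to 9 in controls. It was under the filter, so a difference could not be tested.

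Among the target genes, PDK4, a kinase that shuts off pyruvate dehydrogenase when fat is burned, was at 0 to 1.92 CPM in cases (median 0.70) and 0 to 5.15 CPM in controls (median 1.02). The cases filled the lower part of the range of the controls, and 6 of 18 controls lay above every case. The log2 fold change of -0.96 (SE 0.55, edgeR P = 0.0937, adjusted P = 0.605) did not pass the test. It was -0.57 (SE 0.82) with limma-voom and -1.22 (SE 0.59, unadjusted edgeR P = 0.047) with body condition score as a covariate. PLIN2, which coats lipid droplets, was at 49.1 to 80.3 CPM in cases (median 59.2) and 38.9 to 151.8 CPM in controls (median 61.9), with control_09 far above the rest, and PLIN3, a second coat protein, was at 5.69 to 18.6 CPM (median 9.14) and 6.09 to 18.0 CPM (median 9.16). Their log2 fold changes were -0.16 (SE 0.14) and -0.01 (SE 0.16). ANGPTL4, a secreted inhibitor of lipoprotein lipase, had 0 to 3 counts in cases and 0 to 7 in controls, and the fatty acid transporter CD36 0 to 8 and 0 to 6. ANGPTL4 was at 0 in 7 cases and 8 controls and CD36 in 7 of each group, so neither could be compared.

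Of the lipases that release stored triglyceride in sequence, LIPE, the hormone-sensitive lipase, was at 4.49 to 9.21 CPM in cases (median 7.11) and 3.05 to 7.73 CPM in controls (median 5.66). The groups overlapped, with 11 of 13 cases above the median control and 2 above every control. Its log2 fold change of 0.27 (SE 0.11, edgeR P = 0.0232, adjusted P = 0.407) missed the threshold after adjustment. With the platelet score as a covariate it was 0.22 (SE 0.13, P = 0.110), and with age it was 0.25 (SE 0.12, P = 0.0507), both unadjusted edgeR P-values. PNPLA2, which acts before LIPE, and MGLL, which acts after it, had log2 fold changes of -0.16 (SE 0.14) and -0.19 (SE 0.14).

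**Figure D2:**
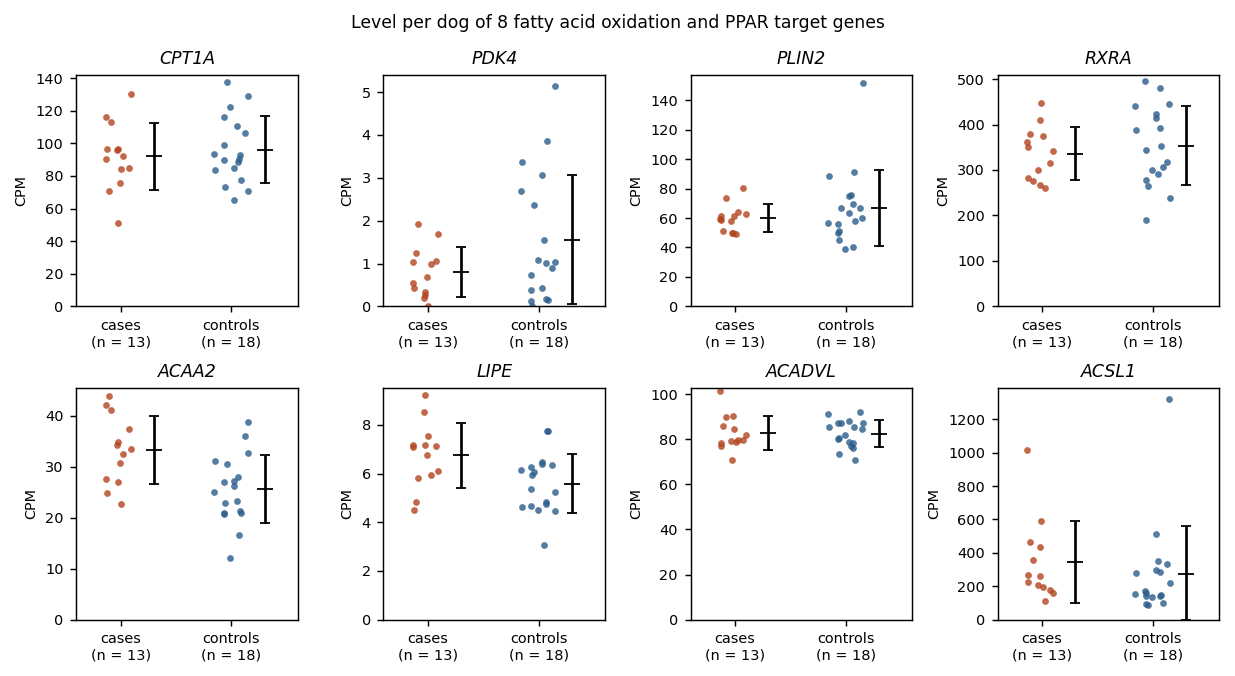
Level in CPM of 8 of the genes in each dog (vertical axes, linear from 0), with 13 cases and 18 controls as points and bars for the mean and SD, the lower bar of ACSL1 in controls ending at 0. Cases and controls overlap in every panel, the medians of ACAA2, LIPE and ACSL1 are higher in cases, at 33.5, 7.11 and 261 CPM against 25.7, 5.66 and 167, and single dogs stand apart for PLIN2 and ACSL1.

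The genes were next followed against the triglyceride values the study gives for each dog, within each group, as a slope in log2 CPM per doubling of triglycerides. Within the 13 cases, no gene of the whole table passed edgeR's quasi-likelihood test after Benjamini-Hochberg adjustment (0%), and neither did any member, with DESeq2 and limma-voom also calling none of the members. An unadjusted P under 0.05 was reached by 6 of the 34 genes, all with positive slopes, against 5.91% of all genes in either direction, 4.19% with positive and 1.72% with negative slopes. They were ACAD9 (slope 0.44, SE 0.12, P = 0.0019, adjusted P = 0.341), HADHA (0.22, SE 0.06, P = 0.00353), ACADVL (0.10, SE 0.04, P = 0.0176), ACSL1 (0.49, SE 0.19, P = 0.0204), ETFA (0.13, SE 0.05, P = 0.029) and ACAA2 (0.17, SE 0.08, P = 0.0466). The slope was above 0 for 21 of the 34 members, where 47.7% of all genes lay above, and its median was 0.02, against -0.01 over all genes tested.

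For 4 of these genes the slope rested on 1 dog. Without case_01, which had the highest triglycerides and the highest level of ACADVL, ACAD9, HADHA and ETFA, 1 of the 34 genes had an unadjusted P under 0.05 with edgeR, where the share of all genes was 1.82%. That gene was PDK4, with a slope of 1.35 (SE 0.45, P = 0.00986). The slope of ACAD9 became 0.09 (SE 0.13), that of HADHA 0.03 (SE 0.06), that of ETFA 0.01 (SE 0.06) and that of ACSL1 0.10 (SE 0.29), while that of ACADVL was 0.07 (SE 0.05) and that of ACAA2 0.16 (SE 0.11). The correlation with log10 triglycerides was also computed without the 2 cases farthest from the median, case_01 and case_13. Pearson's r then went from 0.67 to 0.08 for HADHA (Spearman's rho over all cases 0.37), from 0.62 to 0.12 for ACAD9 (rho 0.34) and from 0.43 to 0.02 for ACSL1 (rho 0.24), and from 0.76 to 0.42 for ACADVL (rho 0.66, permutation P of r = 0.00214). None of these correlations passed adjustment over all genes tested (permutation tests, adjusted P at least 0.996). The erythroid score was also high in case_01, and with that score as a covariate the slope of ACSL1 in cases was 0.09 (SE 0.06), while ACAD9 and HADHA had 0.23 (SE 0.08) and 0.19 (SE 0.07).

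PDK4 had a larger slope in cases without case_01. Its slope over all 13 cases was 0.85 (SE 0.42, edgeR P = 0.0645, adjusted P = 0.892), with r = 0.56 (permutation P = 0.048) and rho = 0.65 (permutation P = 0.0193). Without the 2 farthest cases r was 0.76, and without case_12, the case with 0 counts, the slope was 0.59 (SE 0.33, edgeR P = 0.101). Within the 18 controls the slope was -0.12 (SE 0.87) and r was -0.03, and the difference of both slopes was not distinguishable from 0 (0.98, SE 0.97, edgeR P = 0.319). These slopes in cases rest on levels of at most 1.92 CPM.

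Within the 18 controls, whose triglycerides all lay in the normal range, again no gene of the table and no member passed edgeR's test (0%), and DESeq2 and limma-voom called none of the members. Unadjusted P-values under 0.05 were reached by 4 of the 34 genes, against 10.9% of all genes. ACSL1 was the member with a positive slope among them, at 1.31 (SE 0.43, P = 0.00641), where 7.48% of all genes reached this with positive slopes. ETFDH at -0.28 (SE 0.10, P = 0.012), ACSL3 at -0.27 (SE 0.10, P = 0.0136) and ACADS at -0.35 (SE 0.14, P = 0.0173) had negative ones, where 3.44% of all genes did. All 4 had an adjusted edgeR P of 0.422, and 15 of the 34 slopes lay above 0, where 49.1% of all genes did. With the erythroid score as a covariate none of the 34 genes had an unadjusted P under 0.05, where 2.49% of all genes did, and the slope of ACSL1 was 0.09 (SE 0.16). Those of ETFDH, ACSL3 and ACADS were then -0.22 (SE 0.11), -0.23 (SE 0.11) and -0.17 (SE 0.12). The count of members was 1 with the neutrophil score (3.33% of all genes) and 1 with the natural killer and cytotoxic score (3.07%). In controls the erythroid, neutrophil and natural killer scores had rho values of 0.50, 0.55 and -0.34 with triglycerides (unadjusted permutation P = 0.0371, 0.0207 and 0.168). Without control_03, the control with the highest ACSL1, the slope of ACSL1 was 0.68 (SE 0.36, P = 0.0708). The correlations with triglycerides were r = 0.47 for ACSL1 and -0.63, -0.57 and -0.59 for ETFDH, ACSL3 and ACADS, and without control_17 and control_18 they were 0.36, -0.43, -0.46 and -0.41 (permutation tests, adjusted P = 0.524 for each before the dogs were left out). The rho values were 0.53, -0.63, -0.45 and -0.60.

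**Figure D3:**
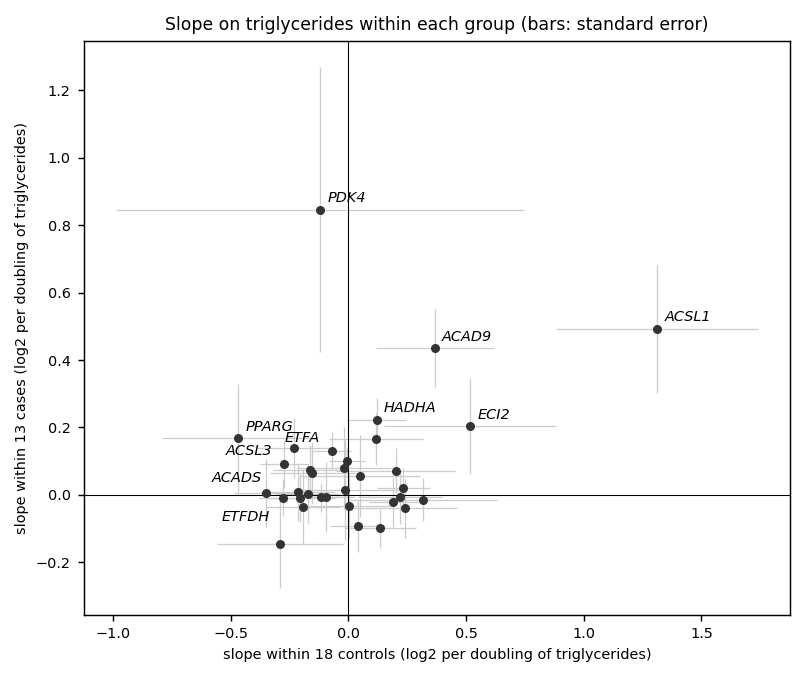
Slope of log2 CPM per doubling of triglycerides within 18 controls (horizontal axis) and within 13 cases (vertical axis) for the 34 genes, with bars for the standard error. Slopes lie between -0.47 and 1.31 within controls and between -0.15 and 0.85 within cases. ACSL1 is positive on both axes at 1.31 and 0.49, and PDK4 is high among the cases with a wide error in both groups.

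The slopes of cases and controls were compared by the interaction of group and triglycerides. No gene passed (0% of all genes, edgeR with Benjamini-Hochberg adjustment), and 4 members had an unadjusted P under 0.05, against 7.76% of all genes, 3.44% with a higher and 4.32% with a lower slope in cases. The slope was higher in cases for 23 of the 34 members, where 50.1% of all genes had it so, and for 18 of the 34 without the 2 farthest dogs of each group, when the members' median difference went from 0.10 to 0.02. The 4 were ACSL3, with 0.09 in cases and -0.27 in controls (P = 0.0059), ETFDH, with -0.01 and -0.28 (P = 0.0133), ETFA, with 0.13 and -0.07 (P = 0.0331), and CPT1A, with 0.14 and -0.23 (P = 0.0473), all with a less negative or more positive slope in cases and an adjusted P of 0.634. With the 2 farthest dogs of each group left out, 1 member had an unadjusted P under 0.05, where 4.56% of all genes did.

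Several members varied with the markers of a blood cell type. These correlations were computed after the erythroid values of ACSL1 had been seen. After removal of the group means, ACSL1 correlated with the erythroid score of ALAS2, SLC4A1 and other red cell genes at r = 0.97 and rho = 0.92 over the 31 dogs (permutation P = 1e-05 for each, the smallest the permutations can give, adjusted P = 0.00018 over all genes). It ranked at position 10 among 13910 genes. The correlation was 0.98 within cases and 0.96 within controls, 0.99 and 0.96 on the high and low side of the small RNA split, and 0.95 without control_03 and case_01, the dogs with the 2 highest scores. The plot of ACSL1 against the erythroid score shows 1 line for both groups. Against the rank of triglycerides the points scatter more widely, with rho = 0.24 in cases and 0.53 in controls (unadjusted permutation P = 0.437 and 0.0257, adjusted P = 0.371 in controls).

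**Figure D4:**
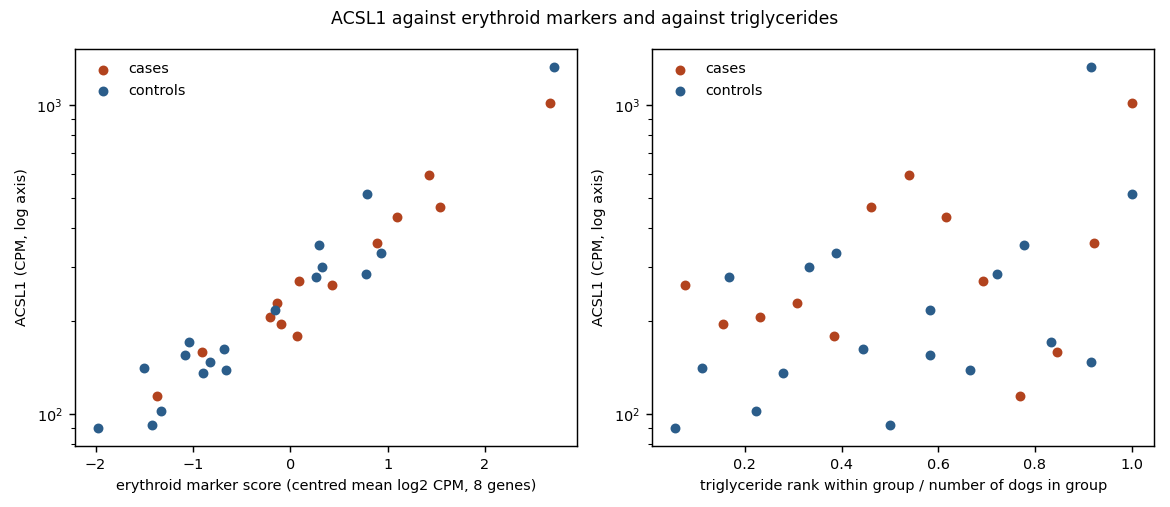
ACSL1 in CPM (log axis) in each dog, cases in red and controls in blue, against the erythroid marker score (left, mean centred log2 CPM of 8 genes) and against the rank of triglycerides within the group divided by the number of dogs in it (right). ACSL1 follows the erythroid score in both groups (r = 0.98 in cases and 0.96 in controls), and case_01 and control_03 are the 2 highest points in both panels.

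Other members also went with that score. Positive correlations passed for 6 members, where 15.1% of all genes had one, namely ACSL1, ECI2 (r = 0.74, rho = 0.63), ACAD9 (0.69, rho 0.42), PNPLA2 (0.56, rho 0.62), ACAA2 (0.53, rho 0.53) and HADHA (0.48, rho 0.01). Negative ones passed for 2, EHHADH (-0.58, rho -0.41) and ACADS (-0.57, rho -0.57), where 17.5% of all genes had one (permutation tests, adjusted P between 0.00018 and 0.0291). Without control_03 and case_01 the r of HADHA was -0.08, that of ACAD9 0.41, that of EHHADH -0.32 and that of ECI2 0.59, so the value of HADHA rested on those dogs. These markers and their genes vary with a large part of the table, so nothing particular to the members is read from such counts.

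The neutrophil score correlated positively with 7 members, where 14.3% of all genes passed in that direction, led by ECHS1 (r = 0.76, rho = 0.73) and PNPLA2 (0.72, rho 0.74), and then ACSL1 (0.60), PPARD (0.59), ACSL4 (0.57), PLIN2 (0.57) and ACAA2 (0.49). It correlated negatively with 3, ACADS (-0.69, rho -0.72), ECI1 (-0.61) and ACSL3 (-0.45), where 14% of all genes did (permutation tests, adjusted P between 0.000274 and 0.0375 for the 10). For PLIN2, ACSL4 and PPARD r was 0.72, 0.67 and 0.71 in controls and -0.18, -0.02 and 0.13 in cases. The difference between the groups was not tested. Without control_09 and control_03, the dogs farthest from the median score, r over the remaining dogs was 0.36 for PLIN2, 0.45 for ACSL4 and 0.40 for PPARD. Control_09 also held the highest level of all 3.

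The T cell score correlated positively with ACADS (r = 0.58), DECR1 (0.57), HADH (0.56), EHHADH (0.52) and ECI1 (0.47), where 18.4% of all genes passed in that direction. Negative values passed for 6 members, PNPLA2 (-0.70), ACSL1 (-0.60), ECHS1 (-0.56), ACSL4 (-0.52), ACADVL (-0.50) and RXRA (-0.44), where 16.3% of all genes did (permutation tests, adjusted P between 0.000384 and 0.0454 for the 11). These values changed little without case_06 and control_16, between 0.39 and 0.64 for the positive and -0.75 and -0.40 for the negative ones. With the platelet score, the one that differed between the groups, no member had a positive correlation that passed, where 5.82% of all genes did, and ACADM correlated at -0.52 (adjusted P = 0.0264, permutation test), where 5.01% of all genes had a negative correlation that passed, and r was -0.39 without control_17 and control_09. For CPT1A, PDK4 and LIPE no correlation with these 4 scores passed, with r between -0.38 and 0.39. The other 4 scores had none that passed with a member. Of all genes, 0.819% passed with positive and 0.0288% with negative values for B cells, 0.46% and 0.00719% for natural killer and cytotoxic cells, and 0% in either direction for monocytes and for eosinophils and basophils.

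The last comparison asked which genes varied together with PDK4 and with CPT1A, the textbook targets of PPAR, among dogs of the same group. PDK4 was low, with a median of 12 counts in cases and 20 in controls, and at 0 in 1 dog of each group. For PDK4 no correlation of any gene passed adjustment (0%). The largest r of all 13917 genes was that of PLIN2 at 0.68 (rho 0.72, permutation P = 6e-05, adjusted P = 0.51 and 0.278 for rho). It was 0.63 within cases and 0.70 within controls, 0.69 with the small RNA split removed, 0.66 without case_12 and control_11, and 0.66 without control_09. The genes after it were ASAH1, a lysosomal ceramidase (r = 0.67), HAUS6, a part of the spindle (0.64), MEFV, the pyrin gene of myeloid cells (0.63), and the unnamed ENSCAFG00000004735 (0.63). Of the other members, ACSL4 (0.48), ACAA2 (0.44), SLC25A20 (0.43) and HADH (-0.43) came next.

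For CPT1A, 1379 genes passed (permutation tests, Benjamini-Hochberg adjusted over 13917 genes), 6.7% of all genes with positive and 3.2% with negative values. Positive values passed for 3 of the other 33 members, ETFB (r = 0.76, rho 0.74, adjusted P = 0.00387), ETFA (0.60, rho 0.63, adjusted P = 0.0207) and ACADM (0.53, rho 0.59, adjusted P = 0.0372). A negative value passed for RXRA (-0.59, rho -0.66, adjusted P = 0.0138), the receptor partner. The 5 genes of the table with the largest r were BPNT1, a phosphatase of sulfur metabolism (0.80), ETFB, EIF3A, a translation initiation factor (0.75), NPM1, a nucleolar protein (0.75), and SSB, an RNA-binding protein (0.75). The median r over the 33 members was 0.19, against 0.02 over all genes. Within cases the values were 0.84 for ETFB, 0.72 for ETFA, 0.59 for ACADM and -0.49 for RXRA, and within controls 0.70, 0.47, 0.47 and -0.67, and none of them passed within a single group. With the small RNA split removed ETFB (0.72, adjusted P = 0.0253) and RXRA (-0.61, adjusted P = 0.0418) passed, where 1.65% of all genes did. Without case_06 and control_18, the dogs with the lowest and highest CPT1A, ETFB (0.72) and ETFA (0.57) passed, where 3.15% of all genes did. Without control_09, 5 members passed, where 12.1% of all genes did, and ACADM, of which that dog had the highest level, had an adjusted P of 0.0614. PDK4 and CPT1A themselves correlated at 0.36 (rho 0.29, adjusted P = 0.161).

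**Figure D5:**
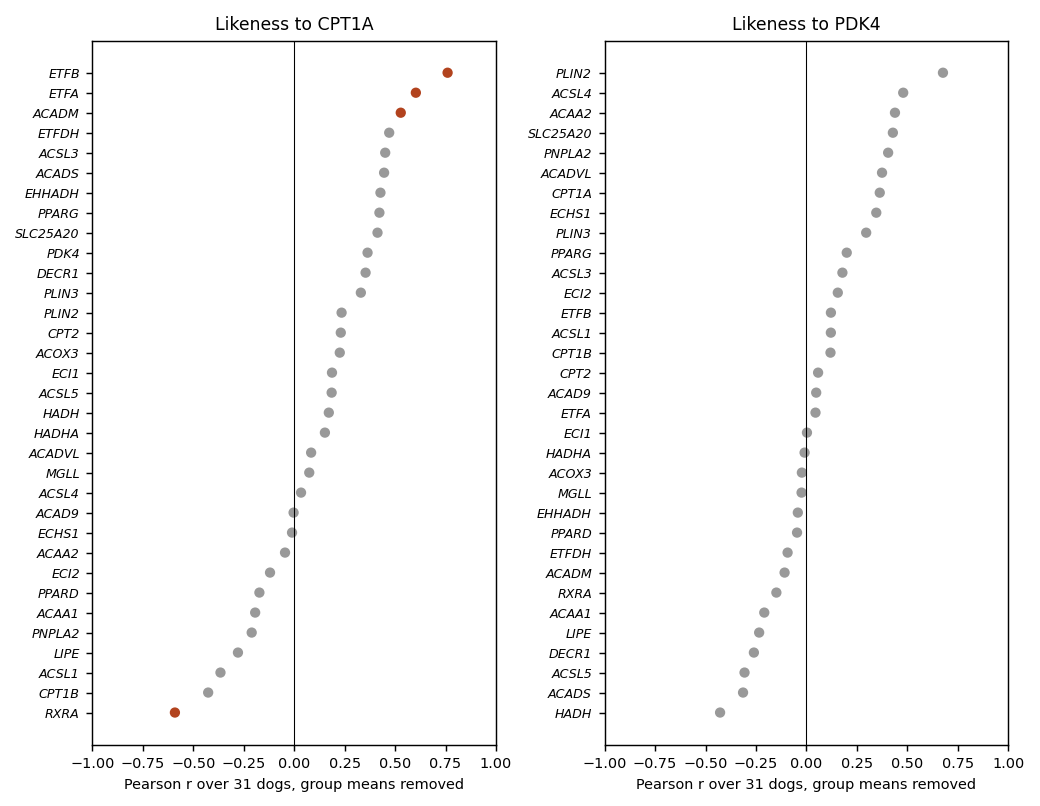
Pearson's r of 33 members with CPT1A (left) and with PDK4 (right) over the 31 dogs after removal of the group means, with red points for an adjusted P of 0.05 or less. ETFB, ETFA and ACADM lie highest and RXRA lowest for CPT1A, and PLIN2 lies highest for PDK4, where no point is red.

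The 144 further genes of fatty acid oxidation, uptake, storage and PPAR control that were listed beside the members gave no call either. Of the 128 with a row, 109 were tested, and 0 passed in any of the comparisons with edgeR after adjustment. Between cases and controls 4 had an unadjusted P under 0.05 with higher and 3 with lower values in cases, against 9.81% of all genes, among them malic enzyme ME1 (log2 fold change 1.33, SE 0.45, P = 0.00535, medians of 0.95 and 0.43 CPM) and the thioesterase ACOT9 (-0.25, SE 0.09, P = 0.0127). The slope on triglycerides had an unadjusted P under 0.05 for 4 genes in cases, against 5.91% of all genes, led by the uncoupling protein UCP2 (0.83, SE 0.21, P = 0.00114), SLC27A3 (-0.14, SE 0.04, P = 0.0067) and SLC27A2 (0.49, SE 0.19, P = 0.0217), both fatty acid transport proteins, and for 9 genes in controls, against 10.9% of all genes, led by the branched-chain dehydrogenase ACADSB (1.58, SE 0.49, P = 0.00411), the peroxisomal transporter ABCD3 (-0.41, SE 0.14, P = 0.00897) and UCP2 (1.29, SE 0.45, P = 0.00934). In cases the correlation of UCP2 with triglycerides was r = 0.51 (rho 0.17) and became -0.11 without case_01 and case_13. The difference of slopes had an unadjusted edgeR P under 0.05 for 4 genes with a higher and 4 with a lower slope in cases, against 7.76% of all genes. The smallest P-values were those of ABCD3 (difference 0.45), the kinase PDK3 (-0.38) and DGAT2 (-0.55), which makes triglyceride. The differences of the list ran from -1.22 to 1.34. UCP2 and ACADSB, like ACSL1, followed the erythroid score, at r = 0.94 and 0.93, as did CRAT, a carnitine acetyltransferase, at 0.94 (adjusted P = 0.00018 for each, permutation tests). Their ranks were 63, 96 and 78 among 13910 genes, and without control_03 and case_01 the r values were 0.94, 0.90 and 0.92. With CPT1A, 14 of the 109 genes passed, 10 with positive and 4 with negative values, where 9.91% of all genes passed, 6.7% and 3.2%. PDHA1, the pyruvate dehydrogenase subunit that the PDK kinases act on (0.73), ACAT1 (0.63), ACOT9 (0.60), PCCB (0.57), ACBD3 (0.57), PDP2 (0.55), ACOT13 (0.53), PEX11A (0.53), OXCT1 (0.53) and ECHDC1 (0.51) were positive, and RXRB (-0.63), SLC25A29 (-0.60), MYLIP (-0.54) and UCP3 (-0.53) were negative.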

How the data were processed

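Whole-blood RNA from 31 dogs was sequenced, 1 library for each. Per the study's methods, the authors used Trimmomatic for trimming and HISAT2 for alignment to a Boxer genome. They counted a read pair on a gene when both mates mapped and deposited these counts without normalization. The counting program and its annotation are not given in the sources used here, and the gene identifiers are of another kind than the genome named, so no coordinates are given. Group and sex came from the labels, and triglycerides, age and body condition score from the study's list of dogs.

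The 39 genes, the wider list of 144 pathway genes and the marker lists were chosen with earlier results of these data known. Genes were matched by symbol. In R 4.3.3, edgeR 4.0.16 applied TMM normalization and its filter on low counts by group, which left 13918 of 32704 rows, and fitted a quasi-likelihood model with Benjamini-Hochberg adjustment over all rows tested at a threshold of 0.05. Triglycerides entered as log2 values within each group. Levels are CPM, counts scaled to a common library size, with a prior count of 2 on the log2 scale. Correlations used 100000 permutations within group in Python 3.11.15 with numpy 2.4.6. A marker score is the mean log2 CPM of a list of marker genes, each centred over the dogs. The code was tested on simulated data. DESeq2 1.42.0, limma-voom 3.58.1, other normalizations, filters, covariates and sets of dogs were alternatives. Added after seeing the data were the erythroid and the natural killer cell scores as covariates, each side of the small RNA split alone, the fits without single dogs, and the correlations with marker scores.

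The study's methods use DESeq2 with a batch term. The labels do not name the dogs of that batch, so no batch term was used, and a split of the dogs by the counts of 364 small RNA rows was an alternative. All members were named, and those under the filter were given by their counts. Of the tested members, the lowest, median and highest CPM per group were given for those with an unadjusted P under 0.05 in a comparison. They were also given for the tested members of the shuttle, the receptors and the other PPAR targets. Of the pathway list, the 3 genes with the smallest P in each comparison were named, apart from an item that is not reported here, with CRAT and the erythroid values of the list added after they were seen.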

Additional observations from a re-analysis of the deposited data

How the results depend on the processing

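Between cases and controls, in the triglyceride slopes and in their difference, no member passed the adjusted threshold under any alternative, and over these settings the smallest adjusted P of a member was 0.142, for ACAD9 in the slope within cases with sex as a covariate. Over all genes, the 5 calls between cases and controls became 84 with DESeq2 (65 higher, 19 lower), 28 without case_01 and control_03, 3 with body condition score as a covariate, 1 with at least 10 counts in every dog, and 0 with limma-voom, with the platelet or the neutrophil score as a covariate, and within the dogs with high or with low small RNA counts. At an unadjusted P under 0.05, limma-voom gave 1556 genes, the platelet score 826, the neutrophil score 1759 and the sides of the split 549 and 1486. The count of 0 for the slope within cases became 7 with DESeq2 and 5 without the filter on low counts, with 0 to 1 when single dogs were left out, and that within controls became 2 with DESeq2. Cases and controls that share a number share only their place in the order of triglycerides, and over 13 pairs the correlation of their deviations ran from -0.51 to 0.40 and exceeded 0.1 in 4. With the number as a replicate block 0 genes were called and 858 had an unadjusted P under 0.05. For CPT1A, the 1379 correlated genes and 4 members became 230 and 2 with the small RNA split removed, 28 and 0 within cases, 0 and 0 within controls, 438 and 2 without the 2 farthest dogs and 1684 and 5 without control_09. The cause of these changes was not tested. PPARA, ANGPTL4, CD36 and ACADL had too few counts to be compared. The annotation is not given, and how fully these rows cover their genes was not tested.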
